A study of Mus musculus with 10 samples.

Results

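The subject is the comparison of heterozygous with wild-type auditory cortex at 1 month of age, made over all genes. Its members are the 3 libraries titled as Ash1l heterozygotes of 1 month (het) and the 3 libraries titled as wild type of 1 month (WT), 6 of the 10 libraries in the series. The mice were male C57BL/6, and the WT mice are given as age-matched littermates. The labels name the genotype only as Ash1l heterozygous and do not describe the allele. The other 4 libraries come from the same cortical area at 1 year (2 het and 2 WT) and were used for the estimate of the spread and for a second look at the genes named below. RNA was extracted with TRIzol from the whole dissected area, so fewer cells of a type and less RNA per cell cannot be told apart in any value here.

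Ash1l encodes a histone methyltransferase of the Trithorax group that methylates lysine 36 of histone H3. This mark is found on active chromatin and opposes silencing by the Polycomb complexes, which methylate lysine 27 of the same histone. Loss-of-function variants of ASH1L are linked to autism and intellectual disability, and a heterozygous mouse carries a single intact copy of the gene.

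The 6 libraries held 13715395 to 17252964 counts, and 22203 of the 34745 genes in the tables had a count in at least 1 of them. After the filter on low counts 16023 genes were tested. The share of counts from mitochondrial genes was highest in het replicate 1 (12.9%) and WT replicate 2 (13%), against 9.42% to 11.2% in the other 4. Het replicate 1 stood apart: it was at 41.3 on the first principal component (29.6% of the variance), where the other libraries lay between -28.0 and 10.8. By chi-square per gene, on counts scaled by library total, it was nearer to WT replicate 2 (14.4) than to the other het libraries (31.6 and 30.3). WT replicate 3 was at 33.6 by this measure. By correlation of log2 CPM, WT replicates 2 and 3 were about equally near to it (0.9804 and 0.9808). The other het libraries were at 0.9744 and 0.9777. Markers of the labelled tissue were present: the 9 pan-cortical excitatory genes summed to 3130 to 3991 normalized CPM (counts scaled to a common library size) in every library. No label ties a library to a single animal, so the p-values reflect the spread within the groups of all 10 libraries, which may be technical.

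Ash1l, the gene altered in these mice, checks the labels of the libraries of 1 month. Its gene body spans GRCm38 chr3:88950622-89079375 on the plus strand. It stood at 147, 153 and 131 normalized CPM in het replicates 1 to 3 and at 225, 192 and 218 in WT replicates 1 to 3. Every het library was below every WT library. The het mean of 143 ± 11.5 (SD, n = 3) was 67.8% of the WT mean of 212 ± 17.6 (SD, n = 3). The log2 fold change was -0.56 ± 0.10 (SE), with an edgeR adjusted p of 0.279 over all genes and a DESeq2 adjusted p of 0.00167. The exact two-sided permutation test gave p = 0.1, the smallest that 3 against 3 libraries allow. Dap3, a mitochondrial ribosomal protein gene, overlaps Ash1l on the opposite strand. No source used here says whether counting used the strand, and the sum of both genes in het was 74.5% of WT.

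**Figure D1:**
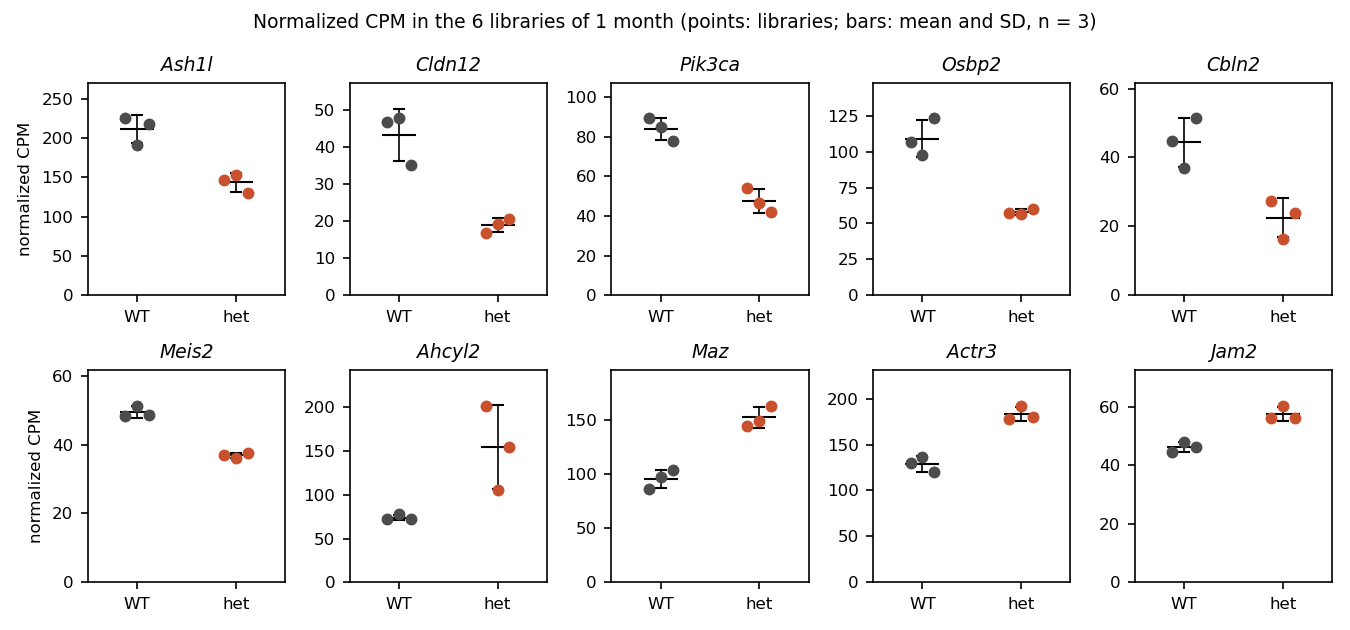
Normalized CPM (y axis, from 0) of Ash1l and 9 other genes in the 3 WT (grey) and 3 het (orange) libraries of 1 month; each point is a library and the bars give the mean and SD. In each of the 10 genes the het and WT points do not overlap, with Ash1l at 131 to 153 in het and 192 to 225 in WT.

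Across all genes no difference passed the threshold in the edgeR quasi-likelihood test. At an adjusted p below 0.05, 0 of 16023 genes were called (0.0% in either direction). At an unadjusted p below 0.05 there were 240 genes higher in het (1.5%) and 240 lower (1.5%). The het and WT libraries did not overlap for 562 genes with het above WT (3.51%) and 534 with het below (3.33%). The median log2 fold change of all tested genes was 0.01, with an interquartile range of -0.09 to 0.12. DESeq2 called 11 genes (0.0687%) on all 10 libraries and 18 (0.117%) on the 6 alone, and edgeR called 2 (0.013%) on the 6 alone. With 1 library left out, edgeR called 8, 4 and 0 genes when it was het replicate 1, 2 or 3, and 1, 1 and 2 genes when it was WT replicate 1, 2 or 3. Below, a gene is described by its values, and a call is credited to the test that made it.

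**Figure D2:**
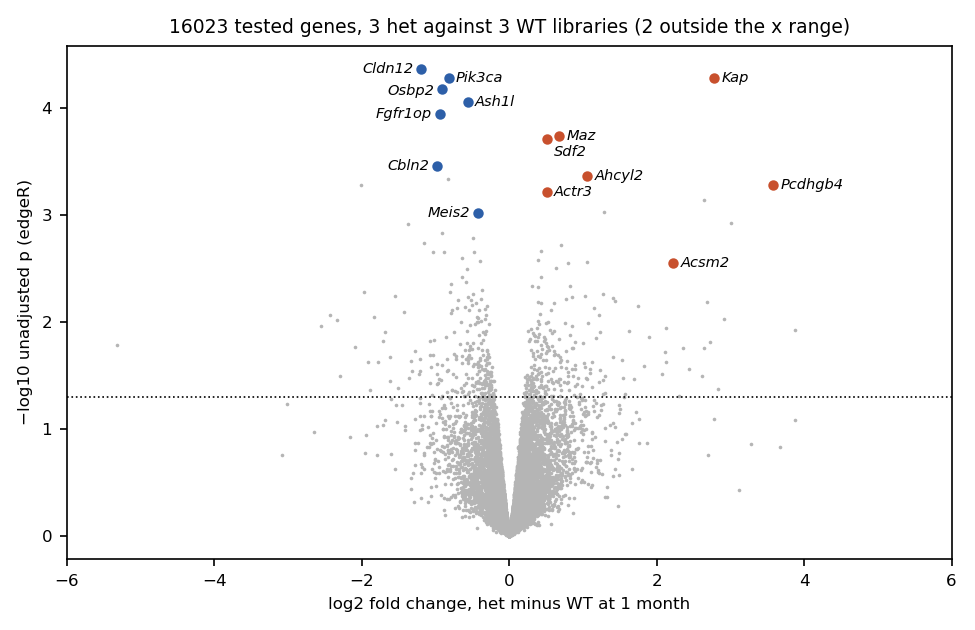
Each grey point is 1 of 16023 tested genes, with its log2 fold change of het minus WT (x axis) and the −log10 of its unadjusted edgeR p-value (y axis); the dotted line marks the unadjusted threshold of 0.05, and 2 genes lie outside the x range. The 14 labelled genes are among those named in the text, coloured by direction (blue lower in het, orange higher); Cldn12, Pik3ca and Kap lie highest.

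Among the genes lower in het, the smallest p-values belonged to a membrane, a signalling and a lipid-binding gene. Cldn12 encodes a claudin, a membrane protein of tight junctions (GRCm38 chr5:5489537-5514958, minus strand). It was at 16.7, 19.2 and 20.5 CPM in the het libraries and at 46.6, 47.6 and 35.1 in WT. The highest het library was well below the lowest WT library, and the log2 fold change was -1.19 ± 0.19. Pik3ca encodes the catalytic subunit alpha of phosphoinositide 3-kinase, which signals downstream of growth factor receptors (chr3:32397671-32468486, plus strand). It was at 54.0, 46.4 and 42.1 CPM in het and 89.2, 84.7 and 77.8 in WT, a log2 fold change of -0.82 ± 0.14. Osbp2 encodes a lipid-binding protein of the oxysterol-binding family (chr11:3703731-3863903, minus strand). It was at 57.3, 56.7 and 60.2 CPM in het and 107, 97.6 and 123 in WT, a log2 fold change of -0.91 ± 0.15. The edgeR adjusted p was 0.266 for each of Cldn12, Pik3ca and Osbp2. DESeq2 on 10 libraries called all of these, with adjusted p of 1.71e-05 for Cldn12, 0.000432 for Pik3ca and 0.000223 for Osbp2.

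The promoters of these 3 genes are shown because these genes had the smallest p among those lower in het; the letters are the 250 bases before the RefSeq start farthest upstream, 5′ to 3′ on the gene's strand, in GRCm38.p6, with each CpG in capitals. CpG-rich promoters are common in genes expressed in many tissues, and Trithorax and Polycomb proteins often act at them.
Cldn12 (chr5:5514977-5515226, minus strand): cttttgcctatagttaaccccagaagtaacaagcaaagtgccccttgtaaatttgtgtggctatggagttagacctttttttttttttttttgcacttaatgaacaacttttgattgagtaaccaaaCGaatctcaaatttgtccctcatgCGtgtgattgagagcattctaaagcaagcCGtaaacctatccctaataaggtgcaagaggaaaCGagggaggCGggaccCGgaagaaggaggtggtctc
Pik3ca (chr3:32396815-32397064, plus strand): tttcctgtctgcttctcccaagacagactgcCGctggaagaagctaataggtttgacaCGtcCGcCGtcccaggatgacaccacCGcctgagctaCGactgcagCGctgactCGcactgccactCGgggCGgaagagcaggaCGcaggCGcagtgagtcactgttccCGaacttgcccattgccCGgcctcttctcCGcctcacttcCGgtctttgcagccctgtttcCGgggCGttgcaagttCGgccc
Osbp2 (chr11:3863904-3864153, minus strand): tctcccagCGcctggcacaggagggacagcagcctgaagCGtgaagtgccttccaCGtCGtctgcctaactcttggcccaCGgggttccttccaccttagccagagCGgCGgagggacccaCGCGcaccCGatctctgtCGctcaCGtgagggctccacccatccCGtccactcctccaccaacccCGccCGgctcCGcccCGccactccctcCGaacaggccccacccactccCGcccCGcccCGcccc
These windows hold 6 CpGs in Cldn12, 19 in Pik3ca and 21 in Osbp2. The median over 32851 RefSeq windows of this length was 6, and 37.8% of them held at least 10. Of the 30 genes named by rule, 19 matched a window by symbol.

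Other genes lower in het were transcription factors and synaptic or guidance genes. Cbln2 encodes a cerebellin, a secreted organizer that links neurexins to postsynaptic receptors; it was at 27.4, 16.4 and 23.8 CPM in het and 44.8, 36.9 and 51.3 in WT (log2 fold change -0.98 ± 0.20, DESeq2 adjusted p 0.00363 on 10 libraries). Fgfr1op, a centrosomal protein gene, was at 11.5, 10.5 and 9.53 CPM in het and 22.1, 18.9 and 19.6 in WT, and DESeq2 called it with an adjusted p of 0.00256. Meis2 encodes a homeodomain transcription factor that works as a cofactor of Hox proteins, whose genes are classical targets of Ash1l. It was at 37.1, 36.04 and 37.5 CPM in het and 48.3, 51.3 and 48.6 in WT, so the libraries of each group lay close together (log2 fold change -0.42 ± 0.10). Sox5, a transcription factor of deep-layer projection neurons, was at 32.0, 29.4 and 26.9 CPM in het and 45.5, 35.5 and 43.2 in WT. Sema3e, a secreted semaphorin that steers axons and vessels, was at 25.1, 22.2 and 21.1 CPM in het and 35.5, 28.6 and 30.8 in WT. Neither Sox5, Sema3e nor Meis2 was called by edgeR or by DESeq2.

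The remaining genes of the lower 15 were Skida1, Ugt1a7c, Fam198b, Crls1, Sh2d5 and Atf6. Crls1, which makes the mitochondrial lipid cardiolipin, was at 14.6, 14.6 and 11.3 CPM in het and 24.1, 29.2 and 21.6 in WT; DESeq2 on the 6 libraries called it (adjusted p 0.00386). Atf6, a sensor of unfolded protein in the endoplasmic reticulum, was at 89.6, 95.2 and 87.1 CPM in het and 126, 102 and 128 in WT. Skida1 was at 5.34, 4.41 and 4.30 CPM in het and 9.05, 7.93 and 7.87 in WT. Sh2d5, a neuronal adaptor protein gene, was at 54.95, 39.0 and 37.9 CPM in het and 74.6, 61.9 and 68.7 in WT. It overlaps Kif17 on the same strand, and both genes together in het were 74.6% of WT.

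Genes higher in het included a transcription factor, a calcium signalling gene and cytoskeletal genes. Maz encodes a zinc finger factor that binds GC-rich promoters (GRCm38 chr7:127022130-127027037, minus strand). It was at 145, 150 and 164 CPM in het and 86.3, 97.2 and 104 in WT, a log2 fold change of 0.67 ± 0.13 (edgeR adjusted p 0.390, DESeq2 adjusted p 0.00592 on 10 libraries). Ahcyl2 encodes a relative of the regulator IRBIT, which acts on inositol trisphosphate receptors and ion transporters. It was at 202, 106 and 155 CPM in het and 72.1, 77.6 and 72.3 in WT. The WT libraries lay close together and the het libraries were spread, and the log2 fold change was 1.06 ± 0.21 (edgeR adjusted p 0.647, DESeq2 adjusted p 0.000432). Actr3, a subunit of the Arp2/3 complex that nucleates branched actin, was at 178, 192 and 179 CPM in het and 129, 137 and 120 in WT; DESeq2 called it on the 6 libraries (adjusted p 0.0340) and not on the 10 (0.0835). Msn, which encodes moesin and ties actin to the membrane, was at 28.1, 26.4 and 26.6 CPM in het and 22.1, 20.3 and 19.4 in WT. Jam2, a junctional adhesion molecule, was at 56.3, 60.4 and 56.2 CPM in het and 44.4, 48.0 and 46.4 in WT.

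Ss18, a subunit of the BAF chromatin remodeller, was at 26.2, 21.04 and 20.8 CPM in het and 8.62, 12.04 and 12.04 in WT; DESeq2 called it on the 6 libraries (adjusted p 0.00029). Scoc, a Golgi coiled-coil protein gene, was at 132, 145 and 122 CPM in het and 56.9, 59.8 and 109 in WT; WT replicate 3 lay near the het libraries. Dnah7b, an axonemal dynein of motile cilia, was at 5.62, 6.99 and 7.41 CPM in het and 2.81, 4.79 and 3.94 in WT. Kap and Acsm2, the other two with no overlap between the groups and no overlapping gene, are kidney genes and are described with that list.

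Several named genes overlap a neighbour in the annotation, on the opposite strand in most cases. If counting ignored the strand or split reads between them, their own values are uncertain, and this was not tested. Sdf2, an endoplasmic reticulum protein gene that DESeq2 called (adjusted p 0.0208), overlaps Supt6, and both together in het were 104% of WT. Wdr77 overlaps Atp5f1, and the sum was 106% of WT. Ugt1a7c shares its last exons with the Ugt1a family, and the sum over 8 overlapping genes and itself was 98.3% of WT. Plcxd1 overlaps Gtpbp6, and the sum stayed at 134% of WT. Ube3a, the imprinted ubiquitin ligase of Angelman syndrome, was at 35.2, 35.9 and 45.2 CPM in het and 75.7, 58.6 and 136 in WT and was called by DESeq2 on the 6 libraries (adjusted p 0.00255); its antisense transcript Snhg14 covers it, and the sum was 81.4% of WT. Gm28539 and PISD were also called there; Gm28539 overlaps genes that together had a mean of 91.7 CPM, and PISD lies on an unplaced scaffold with near-identical copies elsewhere. C330011M18Rik had 18, 29 and 51 counts in het and 0 in each WT library; its overlapping neighbour Rfx1 had a mean of 21.8 CPM over the libraries, so their sum says little about it.

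Pcdhgb4 had the largest fold change among the 11 genes that DESeq2 called on 10 libraries. It was at 56.4, 78.6 and 71.4 CPM in het and 6.31, 6.51 and 4.52 in WT (log2 fold change 3.58 ± 0.58). EdgeR on the 6 libraries called it too, with an adjusted p of 6.75e-05. The gamma protocadherins are neuronal adhesion proteins made from variable first exons joined to shared last exons, so reads of the shared exons can go to any of them. The 22 gamma genes together were at 504, 722 and 613 CPM in het and 623, 486 and 664 in WT, and the groups overlapped. In every library a different gamma gene was the highest, from Pcdhgb8 in het replicate 1 to Pcdhga8 in WT replicate 3. Fopnl, a centriolar protein gene with no overlapping expressed gene, was the other call of edgeR on the 6 libraries (adjusted p 0.0249): it was at 14.6, 10.7 and 12.3 CPM in het and 33.7, 43.5 and 32.7 in WT.

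The libraries of 1 year are separate samples, but their spread entered the p-values that ranked these genes, so the counts by p at 1 year are not independent of the choice and are given as a description. Of the 30 genes named by rule, 28 had counts at 1 year, and 18 of them (64.3%) differed in the same direction as at 1 month, against 52.6% of all tested genes and 52.2% of the 964 with no overlap at 1 month and a mean of at least 1 CPM. Of the higher genes 8 of 13 kept the direction, and of the lower genes 10 of 15. At an unadjusted p below 0.05, 7 of 28 did so, against 3.06% of all genes, where 5.68% had such a p at 1 year in either direction: Wdr77, Dnah7b, Pik3ca, Skida1, Meis2, Sema3e and Sh2d5. Meis2 was at 37.3 and 31.4 CPM in het and 54.3 and 50.5 in WT at 1 year (log2 fold change -0.61 ± 0.12). Pik3ca was at 42.6 and 47.0 CPM in het and 73.1 and 51.9 in WT (log2 fold change -0.48 ± 0.17). Ahcyl2 and Crls1 went the other way at an unadjusted p below 0.05, with Ahcyl2 at 129 and 92.5 CPM in het and 193 and 190 in WT. Cldn12 (0.28 ± 0.23) and Osbp2 (0.31 ± 0.19) had log2 fold changes above 0 at 1 year, and Ash1l was at -0.13 ± 0.12. Ash1l therefore does not check the labels of 1 year as it does those of 1 month. The test of the difference between the ages passed for 0 of the 28 genes with counts at 1 year (smallest edgeR adjusted p 0.745).

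**Figure D3:**
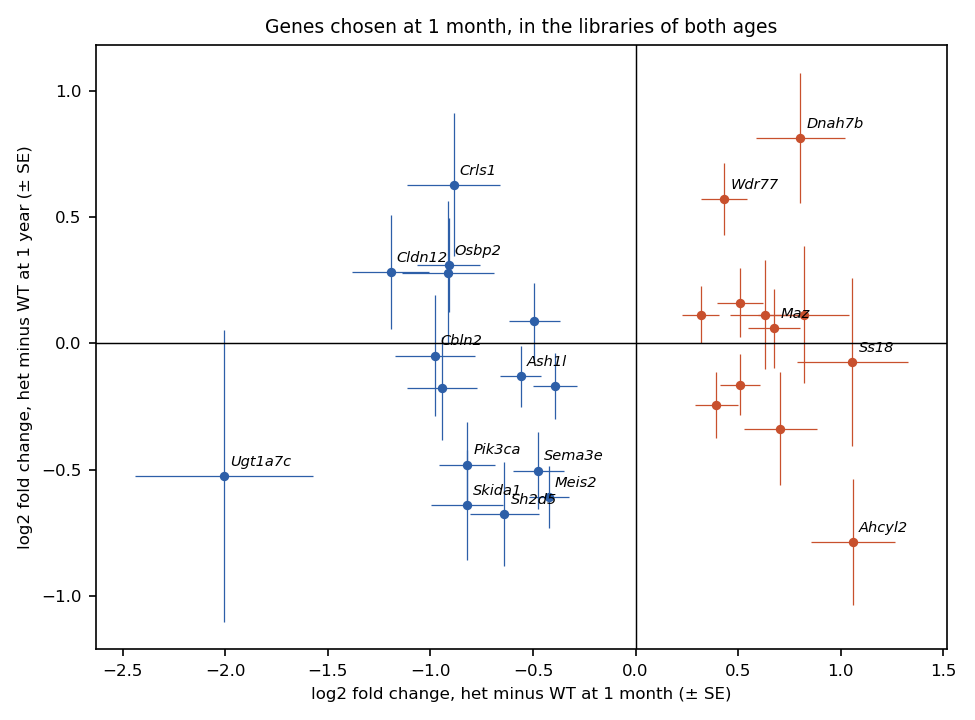
Log2 fold changes of het minus WT at 1 month (x axis, 3 against 3 libraries) and at 1 year (y axis, 2 against 2) for the named genes with counts at both ages, without Pcdhgb4; bars are SE, blue genes were lower and orange genes higher at 1 month. Of the 28 genes, Pcdhgb4 included, 18 lie on the same side of 0 at both ages, among them Meis2, Sema3e, Sh2d5, Skida1, Pik3ca, Dnah7b and Wdr77.

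The enzymes and readers of lysine 36 methylation had medians close to 0, with single members apart. Of 8 writers, 5 were below 0 with a median log2 fold change of -0.05, and after Ash1l only Setmar (-0.29 ± 0.15) had no overlap between the groups. Of 7 erasers, 6 were below 0 (median -0.05), and Kdm2a, a demethylase that binds CpG islands, was at 45.6, 47.4 and 42.7 CPM in het and 50.4, 50.6 and 83.5 in WT. Of 18 readers 9 were above 0 and 9 below; Pwwp2a was at 16.6, 18.2 and 21.5 CPM in het and 13.2, 14.5 and 12.3 in WT. Phf19, which brings Polycomb complexes to the mark, was at 0.763, 0.679 and 0.872 CPM in het and 0.187, 0.374 and 0.470 in WT (log2 fold change 1.15 ± 0.54), with no overlap. Polycomb genes had a median of 0.09 (16 of 26 above 0, against 52.0% of all genes), with 0 at an unadjusted p below 0.05. Trithorax and BAF genes had a median of -0.01 over 35 members, the highest at 0.29. Ss18 (1.06) was not on this list. Of 39 listed Hox genes, 10 had a count at 1 month and 0 passed the filter on low counts, so their differences were not measurable at this depth.

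Signalling genes around Pik3ca showed small differences. Of 11 genes of the kinase itself 7 were below 0 with a median of -0.11, and Pik3ca was the only one of them with no overlap. Pik3r1, the main regulatory subunit, was at 163, 191 and 153 CPM in het and 208, 181 and 197 in WT. Inpp4a, a phosphatase that ends the signal, had a log2 fold change of -0.58 ± 0.19. The 17 genes of AKT and mTOR had a median of -0.02. Of 11 neurotrophin genes 9 were below 0 (median -0.14), and none had an unadjusted p below 0.05. Of 12 oxysterol-binding protein genes 10 were below 0 (median -0.10), and only Osbp2 had no overlap. Of 7 claudins tested 5 were below 0, and Cldn12 was the only one with no overlap.

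Voltage-gated potassium channel genes, which set the firing pattern of neurons, lay mostly below 0. Of 36 tested, 27 were below 0 (48.0% for all genes), with a median of -0.14. At an unadjusted p below 0.05, 7 were lower (19.4% of the list in either direction, against 3.0% of all genes) and 0 higher. Kcns2, a modifier subunit, was at 16.7, 22.5 and 21.7 CPM in het and 28.3, 23.9 and 33.5 in WT. Kcnq5, an M-current channel, was at 95.4, 98.7 and 79.9 CPM in het and 124, 106 and 112 in WT. Kcnh7 had a log2 fold change of -0.33 ± 0.14 with no overlap, while Kcnh5 (-0.38 ± 0.15) overlapped between the groups. The summed level of the list was 2738, 2776 and 2668 CPM in het and 3220, 2723 and 3255 in WT, with WT replicate 2 among the het libraries. The median ranged from -0.17 to -0.07 with 1 library left out. At 1 year the median was 0.03, and 17 of the 36 had the same sign as at 1 month. Of 12 sodium channel genes 5 were above 0 and 7 below, with 1 higher and 1 lower at an unadjusted p below 0.05; the lower one was Scn8a (-0.36 ± 0.16), where WT replicate 2 again lay at the het level.

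Synaptic genes showed single members rather than whole lists. Of 22 glutamate receptor genes 12 were above 0 (median 0.01), and Grin2a, an NMDA receptor subunit, was at 251, 230 and 218 CPM in het and 293, 267 and 285 in WT. Of 15 GABA receptor genes 12 were below 0 (median -0.07), and 0 had an unadjusted p below 0.05. Vamp1, a vesicle SNARE of fast-firing neurons, was at -0.42 ± 0.15 with overlap. The 39 presynaptic genes as a list had a median of -0.02, and the 32 postsynaptic density genes 0.03. Of 43 synaptic adhesion genes 28 were below 0 (median -0.05), with Cbln2 and Tenm3 at an unadjusted p below 0.05 (4.65%, against 3.0% of all genes); the median ranged from -0.16 to 0.05 with 1 library left out and was above 0 without het replicate 1. Tenm3, a teneurin, was at 50.6, 67.6 and 68.0 CPM in het and 91.3, 72.0 and 80.1 in WT. Of 67 axon guidance genes 38 were below 0 (median -0.05); besides Sema3e, the receptor Epha7 was lower (-0.42 ± 0.14), and Ntng1 (0.52 ± 0.19) and Plxna3 (0.25 ± 0.10) were higher, each with no overlap. The list had 3 members without overlap in each direction (8.96%, against 6.84% of all genes).

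Of 56 autism-linked genes, 36 were below 0 with a median of -0.03. The libraries did not overlap for 6 with het below WT and 2 with het above WT (14.3% of the list, against 6.84% of all genes). The 6 lower ones include Ash1l, the gene altered in these mice, so this share is not independent of the genotype. They also include Ube3a, whose own value is uncertain because Snhg14 covers it. Both had an unadjusted p below 0.05 in edgeR. Wac, a chromatin-linked regulator, was at 86.6, 80.7 and 81.3 CPM in het and 63.7, 57.9 and 73.8 in WT. Immediate early genes, which report recent neuronal activity, had a median of 0.04 over 42 members, and Egr3 was at 80.1, 74.0 and 77.4 CPM in het and 83.5, 85.0 and 107 in WT. Of 2276 genes spanning over 100 kb, 1303 were below 0 (57.3%, against 48.0% of all genes), with a median of -0.03. At an unadjusted p below 0.05, 60 of them were lower and 25 higher (3.74% in all, near the 3.0% of all genes). The 71 tested genes that start within 1 Mb of Ash1l had a median of 0.02.

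**Figure D4:**
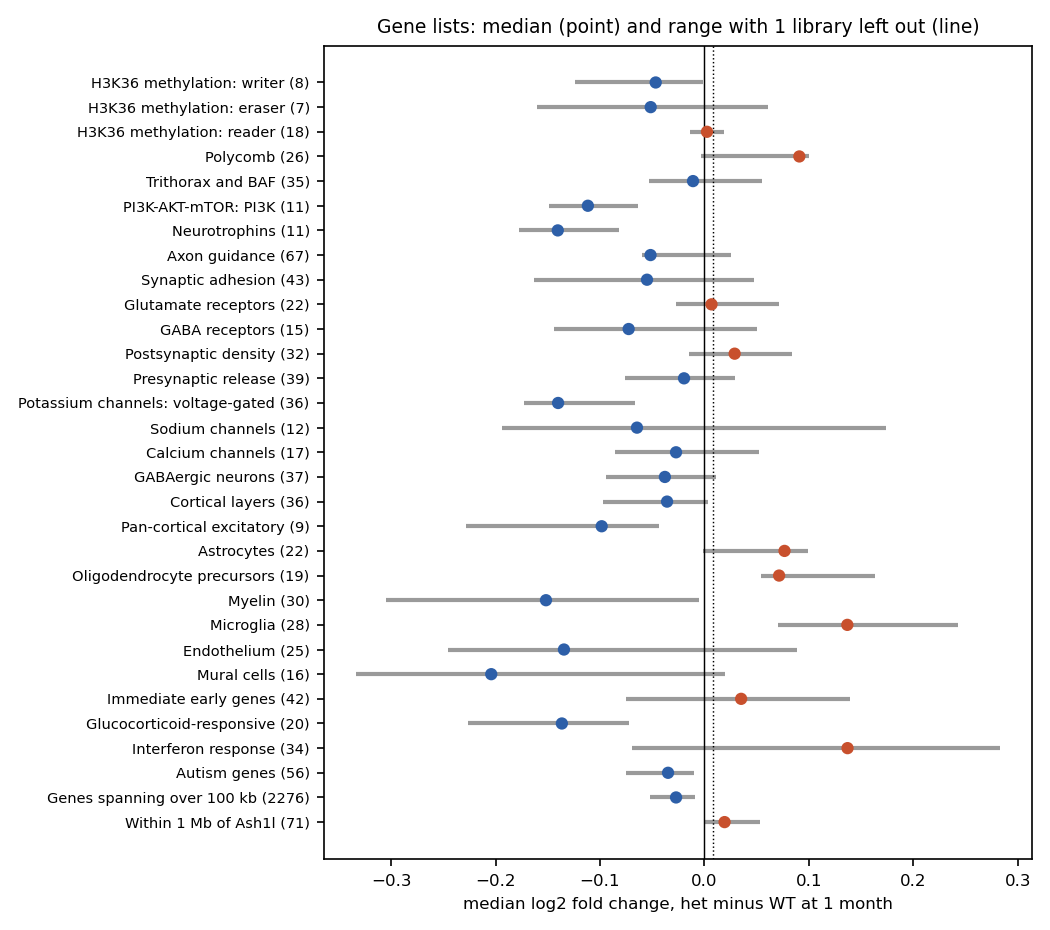
Median log2 fold change of het minus WT at 1 month (x axis) for 31 gene lists or roles, with the number of tested members in brackets; the grey line is the range of the median when 1 of the 6 libraries is left out, the solid vertical line is 0 and the dotted one the median of all genes (0.01). The range of voltage-gated potassium channels (-0.17 to -0.07) and of microglia (0.07 to 0.24) does not reach 0. The same holds for PI3K, neurotrophin, pan-cortical excitatory, oligodendrocyte precursor, myelin, glucocorticoid-responsive and autism genes. It also holds for lysine 36 writers and genes spanning over 100 kb. The range of astrocytes, endothelium, mural cells and interferon genes crosses 0.

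Marker genes of glia and vessels differed by list. Of 28 microglia genes, 26 were above 0 (92.9%, against 52.0% of all genes), with a median of 0.14. Only 1 had an unadjusted p below 0.05 (3.57%, near the 3.0% of all genes). The libraries did not overlap for 5 of them, all with het above WT (17.9%, against 6.84% of all genes). C1qb, a complement subunit, was at 42.7, 43.8 and 48.3 CPM in het and 31.6, 39.3 and 39.1 in WT, and Itgam, the integrin alpha chain CD11b, was at 21.2, 21.3 and 24.9 in het and 19.9, 16.8 and 17.7 in WT. Laptm5 (0.26 ± 0.13) and the lysosomal Cd68 (0.40 ± 0.20) also had no overlap, but by narrow margins. The lowest het and highest WT libraries were at 23.31 and 23.03 CPM for Laptm5 and at 6.916 and 6.873 for Cd68. The summed level was 774, 841 and 820 CPM in het and 669, 813 and 725 in WT, so WT replicate 2 was among the het libraries. At 1 year the median was -0.16, and 8 of 28 had the same sign. Of 19 oligodendrocyte precursor genes 16 were above 0 (median 0.07), with Lhfpl3 at 27.8, 35.2 and 30.1 CPM in het and 25.7, 26.6 and 22.4 in WT.

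Of 30 myelin genes, 22 were below 0 with a median of -0.15, which ranged from -0.30 to -0.00479 with 1 library left out. Their summed level was 3453, 2350 and 2124 CPM in het and 3061, 2354 and 2813 in WT, and het replicate 1 was the highest of all. Plekhb1 went the other way, at 177, 114 and 105 CPM in het and 72.1, 89.4 and 73.2 in WT. The astrocyte list had a median of 0.08 over 22 genes; its summed level was 4159 CPM in WT replicate 1 and 6575 to 7246 in the other 5 libraries. Endothelial (-0.13) and mural cell (-0.20) medians were below 0, and both turned above 0 without WT replicate 1 (0.09 and 0.02). Of 10 blood genes 5 were above 0 and 5 below, and their summed level was 426, 513 and 524 CPM in het and 447, 437 and 472 in WT; among them Hba-a1, a haemoglobin chain, was at 2.36, 2.72 and 3.37 CPM in het and 4.56, 4.86 and 4.23 in WT. Of 9 pan-cortical excitatory genes 8 were below 0 (median -0.10), with Neurod2 at 61.5, 61.5 and 58.1 CPM in het and 71.7, 66.6 and 72.1 in WT. Of 37 interneuron genes 24 were below 0 (median -0.04); Lamp5 was at -0.30 ± 0.12 with no overlap and Calb2 at 0.54 ± 0.20 with overlap. Marker lists of neighbouring regions were at 300 to 377 CPM for striatum, 95.1 to 118 for thalamus and 572 to 835 for hippocampus in sum. In each of these sums the groups overlapped. By the mean log2 level of the 13 tested hippocampus genes, every het library was below every WT library. It was -0.16, -0.06 and -0.12 in het and 0.16, 0.05 and 0.12 in WT, relative to each gene's mean. The same measure overlapped for striatum and thalamus. The part of cell composition in the differences above was not tested.

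Among the lists of ribosomal, respiratory and protocadherin genes, ribosomal protein genes had a median of 0.11 (63 of 83 above 0), oxidative phosphorylation genes 0.03 (63 of 93 above 0) and clustered protocadherins -0.15 (40 of 57 below 0). With 1 library left out these medians ranged from 0.01 (without WT replicate 1) to 0.29 (without WT replicate 2), from -0.03 to 0.11 (the same 2 libraries) and from -0.27 to -0.08 (without het replicate 2 and het replicate 1). The summed ribosomal level was highest in WT replicate 2 (7408 CPM) and het replicate 1 (6994 CPM), the libraries with the highest mitochondrial share.

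A set of kidney transcripts was present at 1 month at higher levels in het. Kap, a kidney androgen-regulated protein gene, had 76, 226 and 198 counts in het, 30, 20 and 24 in WT, and 0 in each library of 1 year. Its log2 fold change was 2.78 ± 0.40 (edgeR adjusted p 0.266, DESeq2 adjusted p 1.55e-07). Of 39 listed kidney genes, 22 had at most 1 count in each library of 1 year, and all 22 had more counts summed over the het than over the WT libraries. Some of them, such as Slc5a2 (10 counts summed over het) and Slc22a30 (1), had 0 counts in WT. Such genes entered the set by their het counts alone and could not come out lower in het. Together the 22 genes were at 10.96, 37.7 and 24.4 CPM in het and 3.31, 4.34 and 3.58 in WT, a ratio of 6.51 between the means. They include the tubule genes Umod (6, 42 and 28 counts in het; 0, 3 and 7 in WT), Acsm2 (21, 73 and 32; 6, 13 and 8), Napsa (9, 32 and 16; 3, 1 and 3) and Pck1 (6, 18 and 23; 1, 5 and 1). Their level near 0 at 1 year follows from how they were selected. Summed over all 39 listed genes, the level was 220, 322 and 273 CPM in het and 231, 287 and 230 in WT. It was 194 to 213 CPM at 1 year, where the 22 genes were near 0. By this sum the groups of 1 month overlapped. By the mean log2 level of the 18 tested members, relative to each gene's mean, they did not. It was -0.20, 1.01 and 0.71 in het and -0.56, -0.43 and -0.53 in WT. Of these 18, 15 were above 0 (median 1.445, and 0.09 without het replicate 2). Some of them could pass the filter on low counts through their het counts alone. Of 12 listed testis genes 10 had no count at 1 month, and the 18 liver genes summed to 2.25 to 10.1 CPM with no order by genotype. The source of the kidney transcripts was not tested.

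**Figure D5:**
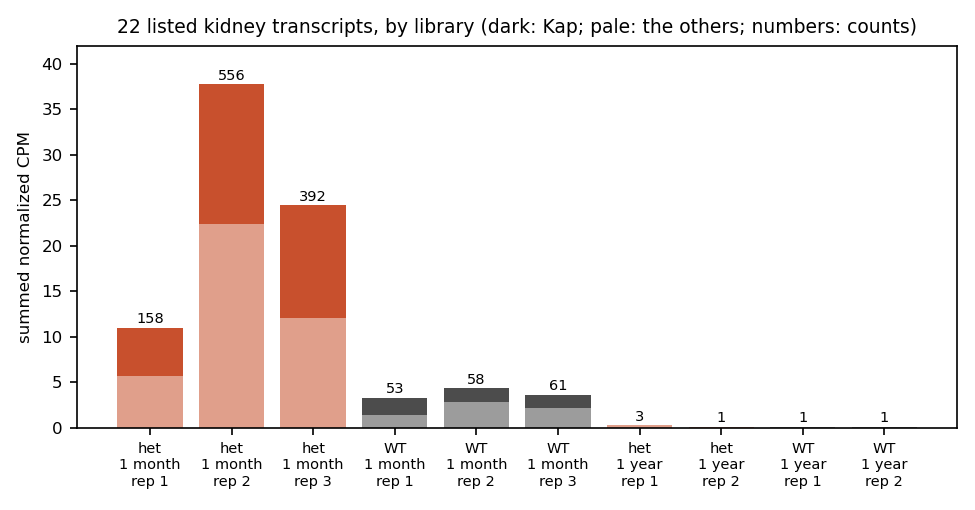
Summed normalized CPM (y axis, from 0) of 22 listed kidney genes with at most 1 count in each library of 1 year, in all 10 libraries; the dark part is Kap, the pale part the other genes, and the number above a bar the summed counts. The 3 het libraries of 1 month hold 158 to 556 counts, the 3 WT libraries 53 to 61 and the 4 libraries of 1 year 1 to 3, a level that the selection of the genes sets.

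Leaving out het replicate 1 and WT replicate 2 together, the library of each group with the highest mitochondrial share, changed the number of calls most. This setting was chosen after seeing the data and leaves 2 libraries against 2. EdgeR then called 40 of 15907 genes (0.251%), 15 higher and 25 lower, with 4.39% of genes higher and 4.73% lower at an unadjusted p below 0.05. The calls include Ash1l (-0.65, adjusted p 0.0211), Pik3ca (-0.92, adjusted p 0.0467) and Kap (3.07, adjusted p 0.00184). The smallest adjusted p belonged to Slc38a1, a glutamine transporter, and Rac1, a small GTPase of the actin cytoskeleton, at -1.72 and -1.58 (2.86e-06 for each), against -1.04 and -0.98 with all 6 libraries. The lower calls also included the synaptotagmin Syt2 (-1.15), the axonal channel Kcna1 (-0.87), Vamp1 (-0.68), the neurofilament Nefm (-0.67) and the myelin protein Mag (-0.61), and the interneuron gene Calb2 was called higher (0.93, adjusted p 0.0352); these and the pair before were picked after their values were seen. Of 37 interneuron genes 22 were above 0 in this setting (median 0.02). In this setting 27 of 30 myelin genes were below 0 (median -0.48), 26 of 28 microglia genes above 0 (0.27), 24 of 36 voltage-gated potassium channel genes below 0 (-0.18) and 78 of 83 ribosomal protein genes above 0 (0.22), against 49.8% below and 50.2% above 0 for all genes. With all 6 libraries, het replicate 1 had the highest summed myelin level. WT replicate 2 was within the het range for myelin, microglia and voltage-gated potassium channels and above it for ribosomal proteins. The counts of these lists therefore rest in part on which libraries were left out. The GABA receptor median turned above 0 in this setting (0.00813).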

How the data were processed

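The members of the comparison, the gene lists and the tests were chosen with earlier results of these data known. The values deposited by the authors are whole read counts for each gene, with a series table that repeats them beside FPKM (the deposited count divided by gene length and library total). Per the submitters' processing notes, CASAVA, FastQC, HISAT2, StringTie and edgeR were used with the build GRCm38; their versions and options, the strand option included, were not among the sources used here. The library kit was a stranded mRNA kit, per the labels' protocols.

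Counts were filtered by group (minimum count 10, minimum total 15), scaled by TMM and tested with edgeR 4.0.16 (robust quasi-likelihood, R 4.3.3) on all 10 libraries with 4 group means (common biological coefficient of variation 0.158). All tests are two-sided; the Benjamini-Hochberg adjustment ran over 16023 genes, and the threshold was an adjusted p of 0.05. The SE is the log2 fold change divided by the square root of F. The calling was tested on simulated data. CPM values are TMM-normalized and floors of 3 counts cover counting error only. Libraries were compared first, and no pair agreed within sampling noise. Named genes were Ash1l; the 15 higher and 15 lower genes of smallest p with a mean of at least 1 CPM, no overlap between the groups and no predicted name; genes called by edgeR or DESeq2 in a fit of all 6 libraries; and up to 6 list members of smallest p, of which the text gives a part; a few genes it picks are not reported here but stay in all counts. Genes taken up outside this rule are said to be so. Lists were described by counts and medians, with no test. Promoter windows are from RefSeq (GRCm38.p6). Alternatives were other scalings and filters, the 6 libraries alone, the replicate number as a block, DESeq2 1.42.0, limma 3.58.1 on log2(FPKM + 1) and log2(FPKM + 0.1), and leaving out libraries.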

Additional observations from a re-analysis of the deposited data

How the results depend on the processing

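The number of genes called was 0 with TMM, relative log expression or upper quartile scaling, with no filter or a stricter one, and on log2(FPKM + 0.1). It was 2 on the 6 libraries alone, 11 with DESeq2 on 10 libraries, 18 with DESeq2 on 6, 1 with limma on log2(FPKM + 1), 0 to 8 with 1 library left out, and 40 without het replicate 1 and WT replicate 2 together. At an unadjusted p below 0.05 the edgeR count was 480, and it was 1019 without het replicate 1 and 934 without WT replicate 2. Ash1l was lower in het in all 17 alternatives (-0.65 to -0.50). It passed the threshold with DESeq2 on 10 libraries (-0.56, adjusted p 0.00167), with DESeq2 on 6 (-0.565, adjusted p 0.0150), and without the same 2 libraries (-0.645, adjusted p 0.0211); its adjusted p over the alternatives ranged from 0.00167 to 0.9995. The cause of these changes was not tested. Of the 28 named genes with counts at 1 year, 15 to 19 kept their direction when 1 library of either age was left out. With 1 library left out edgeR called Pik3ca and Kap without het replicate 1, Ahcyl2 without het replicate 2 and Scoc without WT replicate 3. No direction turned in the 1427 fits of a named gene under an alternative that gave a value. Many of these genes were chosen for a small p or no overlap in the same libraries. That choice left little room for a turn. Of 97 list medians, 38 moved by more than the spread between libraries in at least 1 alternative. The labels give the same replicate numbers to both genotypes; same-numbered libraries deviated from their group means with correlations of -0.04, -0.07 and 0.04 over genes, not every library correlated best with its own number, and the numbers were not taken to pair the libraries. With the replicate block 0 genes were called (437 at an unadjusted p below 0.05), and Ash1l was at -0.56 with an adjusted p of 0.740.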

Other observations

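Ash1l lies on chromosome 3, and so do 5 of the 30 genes named by rule (16.7%), among them Ash1l, Pik3ca, Fam198b and Wdr77. Of all tested genes 5.40% lie on that chromosome. Over the whole chromosome 30 of 865 tested genes had an unadjusted p below 0.05 (3.47%, against 3.0% of all genes). The libraries did not overlap for 63 of the 865 (7.28%, near the 6.84% of all genes). This was looked at after the values were seen, and no test was made. Col12a1, a collagen chain outside the 30, was at 23.1, 20.9 and 25.6 CPM in het and 19.2, 16.5 and 17.2 in WT, and it was higher in het at 1 year as well (log2 fold change 0.62 ± 0.14). Psmb9, an immunoproteasome subunit induced by interferon, was at 1.25, 0.611 and 1.81 CPM in het and 0.0624, 0.449 and 0.470 in WT. Egr3 was lower in het at both ages, with a log2 fold change of -0.25 ± 0.11 at 1 month and -0.66 ± 0.14 at 1 year; of the 42 immediate early genes 27 were above 0 at 1 month, and the median at 1 year was -0.35. These 3 genes were picked after their values were seen.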
